A study of Arabidopsis thaliana with 8 samples.

Results

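Transposable element genes are loci whose annotation marks them as parts of mobile elements, and most of them are kept silent in plants. Described here are the transposable element genes of Arabidopsis thaliana seedlings that were expressed, chosen by 3 criteria. The annotated gene model type had to name a transposable element, the locus had to lie outside a block of chromosome 2 that runs from AT2G07667 to AT2G07835, and the normalized count had to reach 20 in at least 2 of the 8 libraries. Of 3894 such loci 28 lay in the block, and 107 of the remaining 3866 (2.77%) met the count criterion and are called members below. By the same count criterion 18139 of 26931 protein-coding loci (67.4%) would have passed. Another 3190 transposable element genes had some reads without reaching the criterion, and 569 (14.7%) had none in any library.

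The study measured total RNA of 5-day-old seedlings by Illumina sequencing in 4 groups of 2 libraries each. The groups were irx3-2 seedlings on medium with lincomycin, irx3-2 seedlings on MS (Murashige and Skoog) medium alone, wild type (WT, Col-0) seedlings with lincomycin, and WT seedlings on MS alone. All 4 groups grew in continuous white light of 100 µmol photons per square metre and second with sucrose in the agar, and lincomycin was given at 50 µg/ml. irx3-2 is a mutant of IRREGULAR XYLEM 3, which is the cellulose synthase gene CESA7 (AT5G17420) needed for secondary cell walls, and lincomycin is an inhibitor of plastid translation that blocks chloroplast development. The labels do not give the lesion or the parent accession of irx3-2, nor whether replicates were grown as separate cultures, so that p-values measure only the spread between these libraries.

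Background knowledge on these elements is brief. Retrotransposons move through an RNA copy: Copia-like and Gypsy-like elements carry long terminal repeats, in which their transcription starts, LINE elements lack such repeats, and Sadhu elements are short, plant-specific retroposons without coding capacity. CACTA-like, hAT-like and Mutator-like elements are DNA transposons that are cut and pasted by a transposase. In Arabidopsis both kinds are held silent by DNA methylation in several sequence contexts, by histone H3 lysine 9 methylation and by small RNAs, and the enzymes of these pathways are themselves encoded by expressed genes described below.

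The sequences of 4 members called in the same direction between the media in both genotypes are shown, 2 lower and 2 higher on lincomycin, because for Copia-like elements the promoter is the terminal repeat itself. Each is the window from 250 bases before to 50 bases after the annotated start, 5′ to 3′ on the strand of the locus, from the RefSeq TAIR10.1 genome. The windows are chr5:13948978-13949277 (plus strand) for AT5G35777, chr4:14258891-14259190 (plus) for AT4G28900, chr3:10494406-10494705 (plus) for AT3G28160 and chr5:13758946-13759245 (minus) for AT5G35575. AT5G35777 and AT4G28900, both Copia-like, were lower on lincomycin, and AT3G28160, Copia-like, and AT5G35575, Mutator-like, were higher there.
AT5G35777: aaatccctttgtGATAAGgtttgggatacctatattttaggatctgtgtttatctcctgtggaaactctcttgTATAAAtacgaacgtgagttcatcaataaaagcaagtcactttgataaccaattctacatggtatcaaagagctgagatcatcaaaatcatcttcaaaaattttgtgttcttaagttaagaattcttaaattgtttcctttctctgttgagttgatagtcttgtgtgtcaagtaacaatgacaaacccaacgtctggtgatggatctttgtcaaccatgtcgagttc
AT4G28900: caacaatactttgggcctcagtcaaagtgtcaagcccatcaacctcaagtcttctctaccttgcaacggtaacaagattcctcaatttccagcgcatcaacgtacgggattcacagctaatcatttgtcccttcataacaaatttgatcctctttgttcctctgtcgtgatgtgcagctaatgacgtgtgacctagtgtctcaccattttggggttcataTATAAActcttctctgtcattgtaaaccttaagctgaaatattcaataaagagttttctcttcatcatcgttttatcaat
AT3G28160: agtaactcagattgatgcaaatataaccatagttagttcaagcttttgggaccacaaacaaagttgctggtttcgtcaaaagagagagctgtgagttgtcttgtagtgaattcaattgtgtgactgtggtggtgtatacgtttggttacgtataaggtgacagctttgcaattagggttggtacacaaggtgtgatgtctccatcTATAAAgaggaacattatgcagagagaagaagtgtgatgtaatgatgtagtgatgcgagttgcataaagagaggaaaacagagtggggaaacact
AT5G35575: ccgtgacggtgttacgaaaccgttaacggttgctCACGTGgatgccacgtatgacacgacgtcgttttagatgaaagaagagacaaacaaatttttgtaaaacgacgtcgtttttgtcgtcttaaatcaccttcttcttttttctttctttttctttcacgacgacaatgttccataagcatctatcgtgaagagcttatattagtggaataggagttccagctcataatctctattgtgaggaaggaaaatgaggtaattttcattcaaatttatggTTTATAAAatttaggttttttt
Capitals mark matches on either strand to the motif letters TATAAA (core promoter box), GATAAG (I-box), CACGTG (G-box) or TTGACC (W-box). Overlapping matches run together, as in AT5G35575, where TATAAA stands on both strands. The annotated start of a transposable element gene is not a mapped transcription start. TATAAA lay 30 bases before the annotated start in AT4G28900, 45 before it in AT3G28160 and 177 before it in AT5G35777. In windows of the same length TATAAA occurred in 45.8% of the members, in 34.1% of all transposable element genes and in 52.6% of protein-coding genes, so that its presence is common. GATAAG was in 11.2% of member windows, 17.3% of all transposable element genes and 14.6% of protein-coding genes, and CACGTG in 3.74%, 2.28% and 7.79% of these sets. TTGACC was in 4.67% of member windows, 11.7% of all transposable element genes and 14.1% of protein-coding genes.

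Most Copia-like members had a pair of direct repeats, with 1 copy on each side of the midpoint of the locus. Pairs of at least 100 bases and 80% identity were sought in the locus and 5000 bases on either side. They were found for 25 of 35 Copia-like and 7 of 11 Gypsy-like members, against 1 of 16 LINE members and 0 of 6 hAT-like members. Not every pair flanks an element. The left copy of AT3G21040 (chr3:7372241-7373463) overlaps the right copy of its neighbour AT3G21030 (7372551-7373453). The right copy of AT5G35935 (chr5:14088427-14088535) lies inside the locus. In 14 of the Copia-like pairs the copies were over 98% identical and in 6 they were identical. The repeats of AT3G28160 were 677 bases long and 99.6% identical, and those of AT4G28900 were 373 bases long and 99.2% identical. The printed windows of both members lay wholly in the repeat on the 5′ side. For AT5G35777 the repeats were 190 bases long and 93.7% identical, and 46.0% of the window lay in the 5′ repeat.

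A second set of sequences shows the 5 Sadhu members, of which SADHU3-2 was called between the genotypes and the others were not. Each line is the first 80 bases of the locus on its own strand, from the same genome, at chr2:4006965-4007044 (minus) for SADHU1-1 (AT2G10410), chr1:10966907-10966986 (plus) for SADHU1-2 (AT1G30835), chr5:10632241-10632320 (plus) for SADHU1-3 (AT5G28626), chr5:10934651-10934730 (minus) for SADHU4-1 (AT5G28913) and chr3:14750215-14750294 (minus) for SADHU3-2 (AT3G42658).
SADHU1-1: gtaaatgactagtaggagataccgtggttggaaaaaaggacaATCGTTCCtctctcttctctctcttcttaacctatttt
SADHU1-2: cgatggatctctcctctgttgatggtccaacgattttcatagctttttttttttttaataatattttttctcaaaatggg
SADHU1-3: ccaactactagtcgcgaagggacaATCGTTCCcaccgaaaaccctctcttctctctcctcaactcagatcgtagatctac
SADHU4-1: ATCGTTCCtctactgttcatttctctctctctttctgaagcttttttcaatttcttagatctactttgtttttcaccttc
SADHU3-2: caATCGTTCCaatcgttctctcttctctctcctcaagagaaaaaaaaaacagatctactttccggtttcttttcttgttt
Capitals mark ATCGTTCC, letters picked by eye from these lines. The first 80 bases held it, on either strand, in 8 of 15 Sadhu loci and in 18 of all 3866 transposable element genes (0.466%). Both counts include the printed loci from which the letters were picked, so they are no independent check. A local alignment over the full loci was found for 1 of the 10 pairs, SADHU1-1 with SADHU1-3, at 71.5% identity over 431 bases. Each locus was read on its annotated strand, and alignments to the opposite strand were not searched.

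The members differed from the other 3759 transposable element genes in position and in sequence. Within 250 kb, transposable element genes made up a median of 10% of the loci around members and 64.0% around the others. The nearest gene that is not a transposable element gene lay at a median distance of 610 bases from members and 5048 bases from the others. That distance skips transposable element genes, so it is not independent of their share within 250 kb. The median exon length was 2868 bases in members and 1927 bases in the others. Another annotated gene overlapped 15 members (14.0%), against 112 of the others (2.98%). Since the submitters' notes do not give how reads with several matches or the strand were handled, the share of 50-base words that occur once in the genome was counted for each locus. Its median was 98.9% for members, 91.4% for the others and 100% in a sample of protein-coding genes, and it was over 90% for 83 members. For 6 members it was under 50%, and their values may hold reads of other copies: AT3G29120, AT5G13205, AT5G14810, AT5G28263, AT5G28335 and AT5G35575.

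By class, 35 of 490 Copia-like genes were members, 16 of 324 LINE genes, 11 of 919 Gypsy-like genes, 9 of 280 Mutator-like genes, 6 of 77 hAT-like genes, 5 of 15 Sadhu genes and 4 of 343 CACTA-like genes. A further 6 of 81 were retroelements of no stated class, 1 of 19 a transposase of no stated class, 14 of 1309 had no class in their description, and none of 9 Mariner or Pong-like genes was a member. The criterion of 20 in at least 2 libraries was met on lincomycin alone by 23 members and on MS alone by 5, and 56 members were at or above 20 in all 8 libraries. A member that qualified on 1 medium alone had to be higher there, so the numbers of members that moved are a description and no support for a general change. The members nearest inside the threshold were AT3G57586, AT1G64250 and AT4G16910, with second-highest values of 20.3, 21.3 and 21.5. The nearest outside were AT2G11300, AT5G28145 and AT4G21420 with 19.4, 18.4 and 18.4.

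The libraries held 15032240 to 19488440 reads on annotated loci, and the plastid genome took 18.8% to 20.7% of them on lincomycin and 54.1% to 58.1% on MS. The nuclear reads behind the values therefore numbered 12364222 to 13793986 per library on lincomycin and 6656099 to 8164824 on MS, and a normalized count of 20 stood for 29 to 34 reads on lincomycin and 12 to 15 reads on MS. A count of 0 allows up to 3 reads, which is 1.77 to 2.13 normalized counts in a lincomycin library and 4.13 to 5.31 in an MS library; this limit covers counting error only. CESA7 itself had 294 and 401 normalized counts in irx3-2 on lincomycin and 712 and 711 in irx3-2 on MS, against 222 and 210 in WT on lincomycin and 265 and 278 in WT on MS. Its transcript was thus not lower in any library labelled irx3-2, and transcript level does not check the label of a mutant whose lesion is not given.

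Several libraries stood apart in reads that were spread thinly over transposable element genes outside the expressed set. Over those 3759 loci there were 0.442 and 1.16 normalized counts per kb of exon in irx3-2 on lincomycin (replicates 2 and 3) and 0.0882 and 0.861 in irx3-2 on MS (replicates 1 and 2). WT had 0.131 and 0.192 on lincomycin and 0.136 and 0.456 on MS. At least 1 read fell on 70.3% of these loci in irx3-2 lincomycin replicate 3, against 5.16% in irx3-2 MS replicate 1. The irx3-2 MS group thus held both the lowest library and the second highest. For a member this level can matter where the values are low: AT5G29075, a Gypsy-like gene of 10503 bases of exon, had 12.8 and 22.2 in irx3-2 on lincomycin, 0 and 38.9 in irx3-2 on MS, 0 and 0 in WT on lincomycin and 0 and 2.91 in WT on MS, so that its 2 highest values stood in the 2 libraries with most such reads. The source of these reads was not tested, and each result that rests on low counts was also computed with this level subtracted and without the 2 libraries that had most of it. Leaving out these 2 libraries leaves 1 library in each irx3-2 group. A call lost there cannot be told apart from a call lost to fewer libraries.

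**Figure D1:**
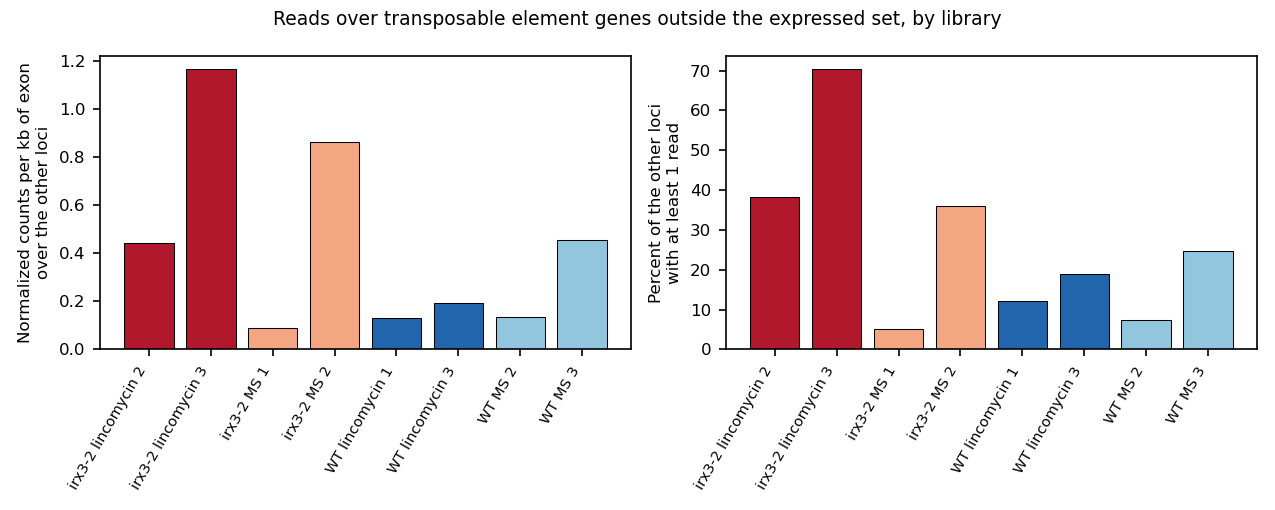
Normalized counts per kb of exon (left) and percent of loci with at least 1 read (right) over the 3759 transposable element genes outside the expressed set, 1 bar per library. irx3-2 lincomycin replicate 3 (1.16 per kb) and irx3-2 MS replicate 2 (0.861 per kb) have the tallest bars on the left, and each differs from the other library of its own group.

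The members together took 0.160% to 0.163% of the nuclear reads in irx3-2 on lincomycin and 0.0891% to 0.0983% in irx3-2 on MS. In WT the shares were 0.188% to 0.189% on lincomycin and 0.0984% to 0.108% on MS. The normalized counts, which take account of depth and of the composition of each library, summed over the members to 14335 and 13657 in irx3-2 on lincomycin, 10912 and 10493 in irx3-2 on MS, 15295 and 15197 in WT on lincomycin and 11985 and 11693 in WT on MS. The totals rest on few loci: the 4 members with the highest mean values held 34.0% of the members' reads pooled over the 8 libraries. Mean values over the 8 libraries spanned 9.43 to 1853 normalized counts with a median of 45.5, and 25 members averaged over 100. Set against exon length, members spanned 0.915 to 709.9 normalized counts per kb with a median of 18.8, and the highest were SADHU1-1 at 709.9, AT3G28160 at 319 and AT2G11240 at 306 per kb.

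On lincomycin against MS, members moved in both directions in each genotype, and more were higher than lower. In irx3-2 the test called 30 members higher and 7 lower, 28.0% and 6.54% of the 107, where 15.8% and 18.0% of the 20251 loci tested were called higher and lower. In WT it called 28 members higher and 8 lower, 26.2% and 7.48%, where 12.0% and 17.2% of all loci tested were called. The test was limma on log2(normalized count + 1) with all 8 libraries in 1 fit of 4 group means, and calls had a Benjamini-Hochberg adjusted p under 0.05 over all loci. The median log2 difference of the members was 0.60 in irx3-2 and 0.51 in WT, beside 0.04 and 0.02 over all loci tested, and setting the members with 0 reads in a group to their bound left both medians as they were. In these whole-seedling samples, fewer cells that express a locus and less RNA per cell cannot be told apart. Of the 40 members called higher in at least 1 genotype, 16 had met the count criterion on lincomycin alone, and 5 of the 11 called lower had met it on MS alone. The authors' deposited tables, with DESeq2 p-values, list 26 members higher and 6 lower in irx3-2, and 25 higher and 7 lower in WT, at an adjusted p under 0.05. The counts depend on having both lincomycin libraries: the test called 17 members in irx3-2 without lincomycin replicate 2 and 23 without replicate 3, where it called 37 with all libraries. In WT it called 18 without lincomycin replicate 1 and 14 without replicate 3, where it called 36 with all.

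The same 18 members were called higher in both genotypes and the same 4 lower, and none was called in opposite directions. The share of all loci called in the same direction in both genotypes is not given here. These counts are therefore no result particular to the members. All 4 lincomycin libraries lay above all 4 MS libraries for 42 members (39.3%), where 18.1% of all loci did so. They lay below them for 7 members (6.54%), where 19.9% of all loci did. The members that met the count criterion on lincomycin alone (23) or on MS alone (5) had to be higher there. All loci tested had passed a lower filter, of 10 normalized counts in at least 2 libraries. These shares therefore describe the members and are no support for a general change. A test of whether the lincomycin effect differed between the genotypes called 0 members by limma, where 0.657% of all loci were called (0.356% higher and 0.301% lower). For that difference 10 members had an unadjusted p under 0.05, the smallest adjusted p was 0.219, and edgeR and DESeq2 on the recovered reads also called 0 members.

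**Figure D2:**
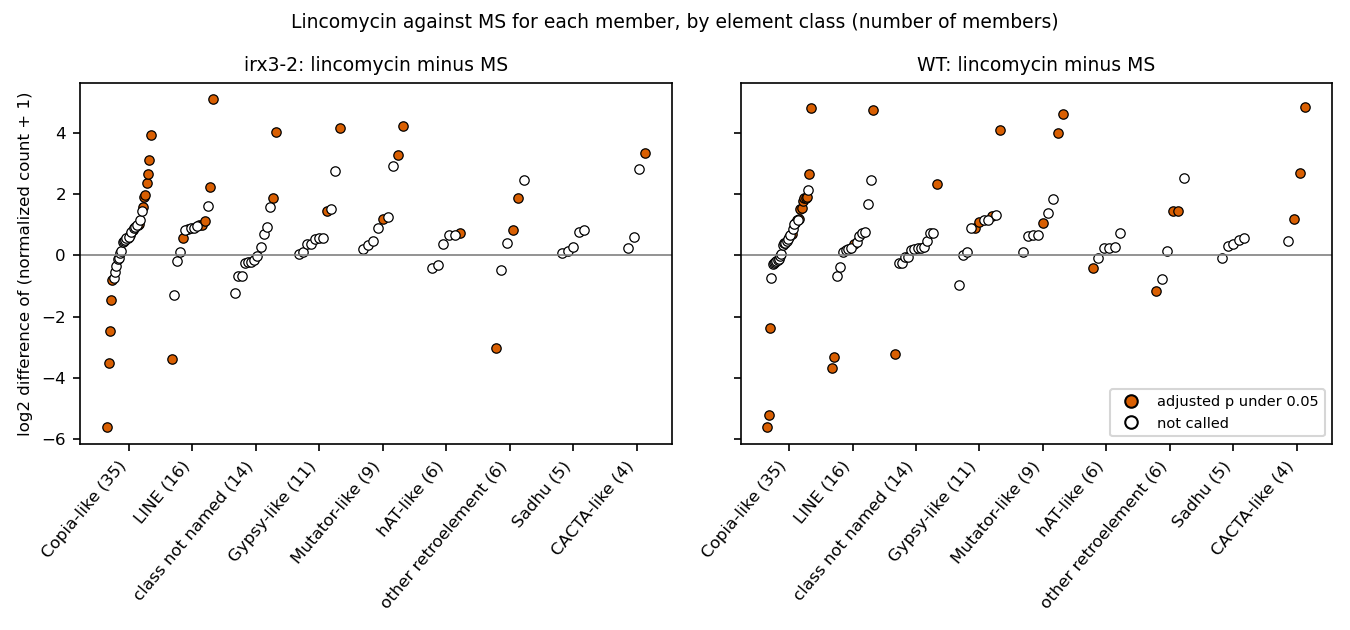
The log2 difference of lincomycin minus MS for 106 members, in irx3-2 (left) and WT (right), by element class with the number of members in brackets; the 1 transposase of no stated class is not drawn. Filled points have an adjusted p under 0.05. Filled points lie on both sides of 0 for Copia-like and LINE members, and no Sadhu member is filled in either genotype.

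By class, 2 Copia-like members described below had the largest called falls, and the called rises were spread over more classes. In irx3-2 12 of 35 Copia-like members were higher and 5 lower, and in WT 13 were higher and 3 lower. Among 16 LINE members 7 were higher and 1 lower in irx3-2, and 2 were higher and 2 lower in WT. Of the 9 Mutator-like members 3 were higher in each genotype and none was lower. Of 11 Gypsy-like members 2 were higher in irx3-2 and 4 in WT, and of 4 CACTA-like members 1 was higher in irx3-2 and 3 in WT, with none lower in either class. No Sadhu member was called in either genotype, with log2 differences of 0.06 to 0.84 in irx3-2 and -0.08 to 0.55 in WT. Of all loci tested 15.8% were called higher and 18.0% lower in irx3-2, and 12.0% higher and 17.2% lower in WT. Counts such as 2 of 16 LINE members higher in WT and 2 of 11 Gypsy-like members higher in irx3-2 are near these shares. Whether classes differ from each other, and whether a class differs between genotypes, was not tested.

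AT2G11240, a LINE gene on the minus strand of chr2:4477686-4483748, had the highest values of all members. Genes on the opposite strand, AT2G11215 and AT2G11225, cover 84.7% of it, and as the strand setting is not given its values may hold reads of those genes, which are themselves listed at 0 in all 8 libraries. It had 1776 and 1661 normalized counts in irx3-2 on lincomycin and 1594 and 1625 in irx3-2 on MS, against 2324 and 2285 in WT on lincomycin and 1815 and 1740 in WT on MS. The WT lincomycin libraries were above the 6 others, and within each genotype the media did not overlap. Its log2 difference on lincomycin was 0.37 ± 0.09 (SE) in WT, with an adjusted p of 0.00996 by limma. That p was 0.0804 without WT lincomycin replicate 1, 0.0639 without replicate 3 and 0.0504 without WT MS replicate 3.

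AT1G20390, a Gypsy-like gene at chr1:7065494-7071561 in an arm region without other transposable element genes within 250 kb, had the smallest adjusted p of the members called higher, in both genotypes. It had 1321 and 1329 normalized counts on lincomycin and 501 and 481 on MS in irx3-2, and 1284 and 1274 on lincomycin and 622 and 570.3 on MS in WT. All lincomycin libraries exceeded all MS libraries, and the 2 libraries of each group lay close together. The log2 difference was 1.43 ± 0.10 in irx3-2 and 1.1 ± 0.10 in WT, with adjusted p-values of 1.67e-06 and 1.41e-05 by limma.

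AT3G28160, the Copia-like gene whose repeat is printed above, lies at chr3:10494656-10496791. It had 1204 and 984 normalized counts on lincomycin and 291 and 156 on MS in irx3-2, and 1229 and 973 on lincomycin and 233 and 388 on MS in WT. The media did not overlap in either genotype, with log2 differences of 2.35 ± 0.29 in irx3-2 and 1.86 ± 0.29 in WT (limma adjusted p of 0.000121 and 0.000719). Per exon length it was the second of all members, and 81.5% of its 50-base words are unique in the genome.

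Among the other members in the 10 with the highest mean, most had higher values on lincomycin in both genotypes. Several of their calls were lost when a single library was left out. For some this held for any of several libraries, and for AT5G55896 also for libraries of neither group compared. The Copia-like genes AT3G43955 and AT2G12490 were called higher in both genotypes, with log2 differences of 0.67 and 0.55 in irx3-2 and 0.70 and 0.59 in WT. AT3G42806, Mutator-like, had 489.7 and 419 on lincomycin and 295 and 359 on MS in irx3-2, and 364 and 427 on lincomycin and 155 and 228 on MS in WT, and was called in WT (1.06 ± 0.20, adjusted p of 0.00219 by limma). AT5G55896, a LINE gene, was called higher in irx3-2, with 527 and 545 on lincomycin and 314 and 414 on MS. SADHU1-1 had 753 and 763 on lincomycin and 677 and 593 on MS in irx3-2, and 876 and 886 on lincomycin and 685 and 730.3 on MS in WT, and was not called. AT1G80020, hAT-like, went the other way, with 467 and 448 on lincomycin and 599 and 545 on MS in irx3-2, and 524 and 461 on lincomycin and 673 and 637 on MS in WT; its call was in WT (-0.41 ± 0.12, adjusted p of 0.0245 by limma). Without a single library the limma adjusted p of AT1G80020 reached 0.195 (WT lincomycin replicate 3), 0.104 (WT MS replicate 2), 0.0534 (WT lincomycin replicate 1) and 0.0504 (WT MS replicate 3). That of AT5G55896 was 0.111, 0.126 and 0.124 without irx3-2 lincomycin replicate 2, replicate 3 and irx3-2 MS replicate 1, and 0.0535 and 0.0536 without WT lincomycin replicates 1 and 3. AT2G12490 was no longer called in irx3-2 without lincomycin replicate 2 (0.158) or MS replicate 2 (0.0958), nor in WT without lincomycin replicate 1 (0.0575), lincomycin replicate 3 (0.129) or MS replicate 3 (0.0704). AT3G43955 was no longer called in irx3-2 without lincomycin replicate 2 (0.0661), nor in WT without lincomycin replicate 3 (0.072).

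**Figure D3:**
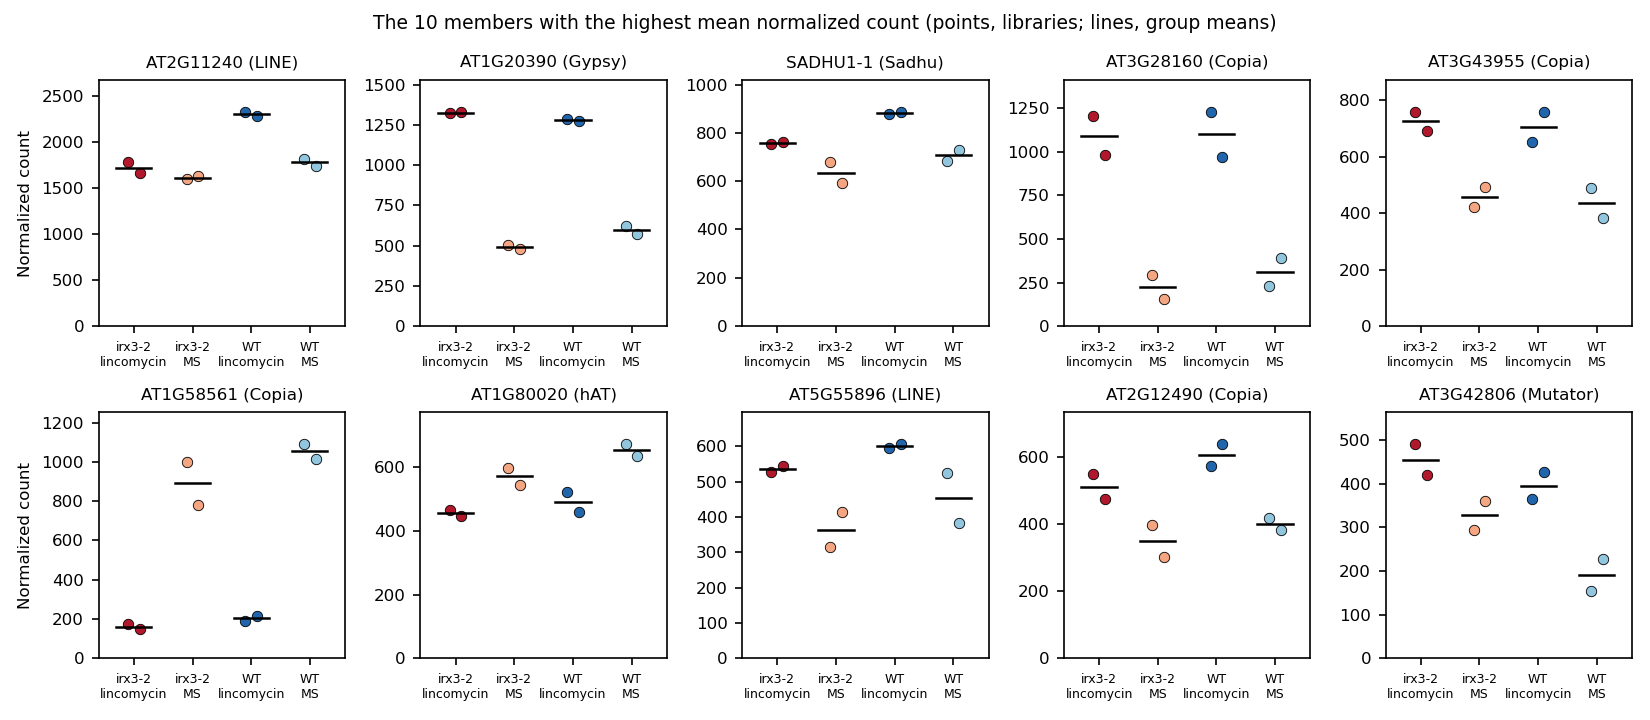
Normalized counts (linear axis from 0) of the 10 members with the highest mean, with 1 point per library and a line at each group mean; irx3-2 is left of WT and lincomycin left of MS in each panel. AT1G20390 and AT3G28160 stand higher in all 4 lincomycin libraries, and AT1G58561 lower, with 149 to 217 on lincomycin and 780.5 to 1089 on MS.

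4 members fell on lincomycin in both genotypes, and 3 of them had values near 0 there. AT5G35777, a Copia-like gene at chr5:13949228-13953802, had 1.42 and 10.5 normalized counts on lincomycin and 234 and 276 on MS in irx3-2, and 2.35 and 12.3 on lincomycin and 244 and 246 on MS in WT. The 4 MS libraries lay close together and the highest lincomycin value is far below them. The log2 differences were -5.60 ± 0.73 in irx3-2 and -5.20 ± 0.73 in WT, with adjusted p-values of 0.00017 and 0.00033 by limma. The nearest gene that is not a transposable element gene is G6PD1 (AT5G35790), which encodes a plastid glucose-6-phosphate dehydrogenase. G6PD1 lies 2870 bases away on the opposite strand and also fell, by 1.51 and 1.24 on the log2 scale.

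AT4G28900, a Copia-like gene at chr4:14259141-14263704, had 0 and 6.53 normalized counts on lincomycin and 37.2 and 24.8 on MS in irx3-2. In WT it had no read on lincomycin and 49.0 and 46.6 on MS, so that it was at least 53.0-fold lower on lincomycin, where the bound takes 3 reads over both libraries of the group. The media did not overlap in either genotype, and the limma adjusted p was 0.0127 in irx3-2 and 0.000931 in WT. Without irx3-2 lincomycin replicate 2, the library at 0, it was 0.0926 in irx3-2. Its neighbour NINJA (AT4G28910), a repressor adaptor of jasmonate signalling, lies 330 bases away on the opposite strand and was called in neither genotype, with 516 and 522 on lincomycin and 529 and 584 on MS in irx3-2, and 547 and 457 on lincomycin and 453 and 354 on MS in WT.

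AT1G47405, a LINE gene at chr1:17389679-17390781, had 0 and 2.61 normalized counts on lincomycin and 24.8 and 14.2 on MS in irx3-2, and 0 and 2.46 on lincomycin and 26.0 and 11.6 on MS in WT. Its calls, at limma adjusted p-values of 0.0206 and 0.0257, rest on few reads. They were lost in irx3-2 without lincomycin replicate 2 (0.151) or MS replicate 1 (0.0746), and in WT without lincomycin replicate 1 (0.186) or MS replicate 2 (0.148). The unnamed locus AT1G07367 ends 179 bases before it on the same strand and had 19.9 and 17.0 on lincomycin and 209 and 150.4 on MS in irx3-2, and 41.2 and 46.7 on lincomycin and 229.8 and 94.6 on MS in WT. It fell in both genotypes as well, by 3.20 and 1.73 on the log2 scale, and whether the values of AT1G47405 are reads running on from it was not tested.

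AT1G58561 lies inside another gene. This Copia-like gene occupies chr1:21748675-21753246 in intron 1, of 7384 bases, of AT1G58602, a disease resistance gene with NB-ARC and leucine-rich repeat domains on the same strand. It had 172 and 149 normalized counts on lincomycin and 999.7 and 780.5 on MS in irx3-2, and 190.1 and 217 on lincomycin and 1089 and 1017 on MS in WT. The media were apart in both genotypes, with log2 differences of -2.45 ± 0.15 in irx3-2 and -2.37 ± 0.15 in WT (limma adjusted p of 6.32e-07 and 8.94e-07). AT1G58602 had 724 and 604 on lincomycin and 2393 and 2083 on MS in irx3-2, and 927 and 887 on lincomycin and 2608 and 2782 on MS in WT, and fell by 1.75 ± 0.12 and 1.57 ± 0.12 on the log2 scale. Reads of the element and unspliced reads of its host cannot be told apart in these values.

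Other members were called lower in only 1 genotype. In WT these were AT4G01490 (LINE), EXT11 (AT5G49080), which the annotation describes as similar to extensins, AT5G14830 and AT1G80020. AT4G01490 had 5.68 and 37.9 on lincomycin and 37.2 and 40.7 on MS in irx3-2, and 0 and 8.61 on lincomycin and 42.9 and 34.9 on MS in WT. Its higher value in irx3-2 on lincomycin stands in replicate 3, the library with most reads over the other transposable element genes. In irx3-2 the calls were AT2G04460, AT4G04410 and AT4G16870, and AT4G04410 had 24.1 and 28.8 on lincomycin and 92.3 and 58.4 on MS. In WT AT4G04410 had 31.2 and 35.0 on lincomycin and 30.6 and 49.5 on MS. AT2G04460, a retroelement of no stated class, had 8.52 and 1.31 on lincomycin and 38.6 and 35.4 on MS in irx3-2, and 9.41 and 18.4 on lincomycin and 26.0 and 20.4 on MS in WT. Its call in irx3-2 (-3.02, limma adjusted p of 0.00633) was kept without each library in turn and lost without both libraries that stood apart (-2.06, adjusted p of 0.081). The other calls in this group were each lost without at least 1 library. The limma adjusted p of AT4G01490 was 0.178 without WT lincomycin replicate 1, 0.0874 without WT MS replicate 2 and 0.0592 without WT MS replicate 3. For EXT11 it was 0.121 without WT lincomycin replicate 3 and 0.102 without WT MS replicate 2, and for AT5G14830 it was 0.101 without WT lincomycin replicate 3 and 0.0609 without WT MS replicate 3. AT4G04410 had 0.0917 without irx3-2 lincomycin replicate 2 and 0.0707 without irx3-2 MS replicate 1, and AT4G16870, whose main adjusted p was 0.0478, was lost without any of 5 libraries, with up to 0.305 without irx3-2 lincomycin replicate 3.

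Several members had no read on MS in at least 1 genotype. AT5G35575, Mutator-like, had 21.3 and 14.4 normalized counts on lincomycin in irx3-2 and 22.9 and 23.4 in WT, with no read in any MS library, so that it was at least 7.56-fold higher on lincomycin in irx3-2 and at least 10.3-fold higher in WT. AT3G55300, Copia-like, had 26.3 and 37.2 on lincomycin and 0 and 3.54 on MS in irx3-2, and 21.8 and 33.8 on lincomycin and no read on MS in WT, at least 12.4-fold higher. AT4G03813, a LINE gene, had 22.7 and 20.3 on lincomycin and 11.0 and 3.54 on MS in irx3-2, and 33.0 and 20.3 on lincomycin and no read on MS in WT, at least 11.9-fold higher. Such bounds lie below the fitted differences, which depend on the 1 added to each normalized count. The bound takes 3 reads over both libraries of a group, and 1 read in an MS library stood for 1.38 to 1.77 normalized counts. The limma adjusted p-values ranged from 0.000607 to 0.00532 for the calls of these members, and AT4G03813 was called in WT but not in irx3-2. The call of AT3G55300 in irx3-2 was lost without lincomycin replicate 3 (0.0558). All of them met the count criterion on lincomycin alone.

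More members with few reads on MS were called higher. AT2G15810 (Mutator-like) was called higher in both genotypes, with 37.6 and 26.8 on lincomycin and 0 and 10.6 on MS in irx3-2, and 30.0 and 30.1 on lincomycin and 0 and 2.91 on MS in WT. AT5G34800, of no named class, was also called in both, with 34.8 and 26.8 on lincomycin and 2.75 and 0 on MS in irx3-2, and 46.5 and 35.0 on lincomycin and 6.13 and 8.73 on MS in WT. The Gypsy-like genes AT4G08050 and AT5G28335 were called in 1 genotype each. AT4G08050 was called in WT, with 30.0 and 36.3 on lincomycin and 3.06 and 0 on MS. AT5G28335 was called in irx3-2, with 17.7 and 45.7 on lincomycin and 0 and 1.77 on MS. AT4G04170 (CACTA-like) was called in WT, with 58.8 and 52.9 on lincomycin and 0 and 2.91 on MS, while irx3-2 had 22.7 and 37.9 on lincomycin and 0 and 17.7 on MS. The nearest gene that is not a transposable element gene, AT4G04180, lies 2092 bases away on the same strand and encodes an ATPase-like protein. AT4G04180 was higher in both genotypes, by 2.34 and 1.59 on the log2 scale. Of these members AT5G28335, and AT5G34800 in irx3-2, kept their calls without each library in turn. AT2G15810 had limma adjusted p-values of 0.0763 to 0.19 without any of 5 libraries in irx3-2, and of 0.112, 0.11 and 0.108 in WT without lincomycin replicates 1 and 3 and MS replicate 2. AT5G34800 had 0.0543 to 0.193 in WT without any of 6 libraries. AT4G08050 had 0.0817, 0.0999 and 0.0656 without WT lincomycin replicates 1 and 3 and WT MS replicate 3, and AT4G04170 had 0.0829, 0.0734 and 0.0717 without WT lincomycin replicates 1 and 3 and WT MS replicate 2.

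AT4G09875, a LINE gene at chr4:6209726-6212148, had the largest fitted rise in irx3-2. It had 37.6 and 28.8 normalized counts on lincomycin in irx3-2 and no read on MS, at least 14.1-fold higher, with a limma adjusted p of 0.00156. In WT it had 4.12 and 4.92 on lincomycin and no read on MS, and it was not called. The irx3-2 lincomycin libraries lay above the WT ones; limma made no call for that comparison (2.62 ± 0.91, adjusted p of 0.137), while edgeR and DESeq2 did. The difference of the lincomycin effects was not called.

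**Figure D4:**
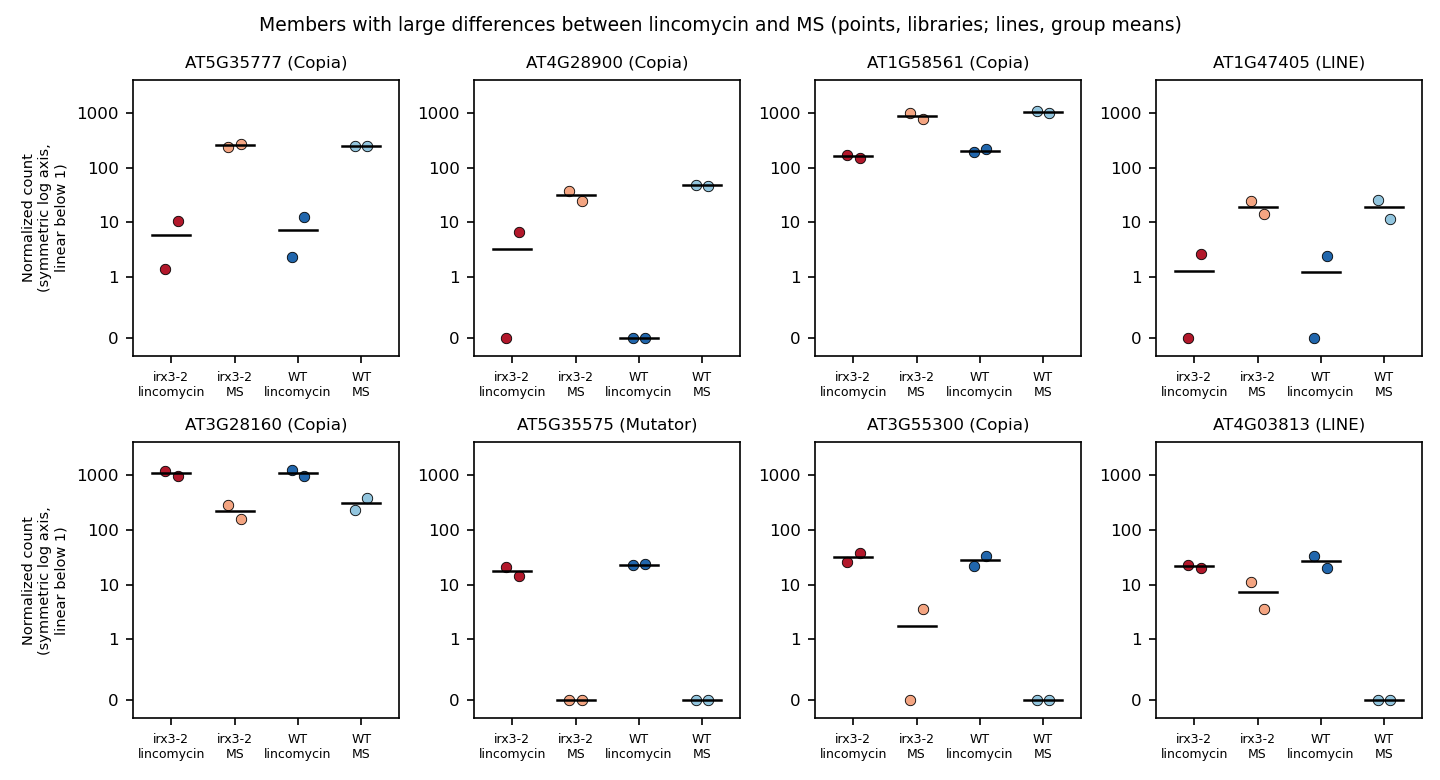
Normalized counts of 8 members on a symmetric log axis that is linear below 1, with 1 point per library and a line at each group mean; the upper row holds the 4 members called lower on lincomycin in both genotypes and the lower row 4 called higher. AT5G35777 is at 1.42 to 12.3 on lincomycin and 234 to 276 on MS, and AT5G35575 at 14.4 to 23.4 on lincomycin and at 0 on MS.

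A run of 4 Copia-like members on 1 strand of chr3:7366210-7374364 were higher on lincomycin, with calls in WT for all 4 and in irx3-2 for 3. AT3G21010 had 66.7 and 68.6 on lincomycin and 55.1 and 35.4 on MS in irx3-2, and 85.3 and 97.1 on lincomycin and 27.6 and 36.4 on MS in WT. AT3G21020 had 27.0 and 30.7 on lincomycin and 8.26 and 5.31 on MS in irx3-2, and 40.6 and 31.4 on lincomycin and 9.19 and 8.73 on MS in WT. AT3G21030 had 62.5 and 35.9 on lincomycin and 13.8 and 10.6 on MS in irx3-2, and 30.6 and 43.6 on lincomycin and 13.8 and 7.27 on MS in WT. AT3G21040 had 59.6 and 39.9 on lincomycin and 5.51 and 8.85 on MS in irx3-2, and 25.3 and 19.7 on lincomycin and 3.06 and 8.73 on MS in WT. AT3G21010 was the one without a call in irx3-2. AT3G21020, AT3G21030 and AT3G21040 met the count criterion on lincomycin alone and so had to be higher there. AT3G21010, AT3G21020 and AT3G21030 fall outside the naming rule and are given as neighbours of AT3G21040. Whether their calls hold without single libraries is not given here. They are neighbours within 8155 bases and at least 96.4% of the 50-base words of each are unique, but whether they are read from 1 transcript is not known, so they are not 4 independent cases. The call of AT3G21040 in irx3-2 was lost without lincomycin replicate 2 (0.0733), and in WT without any of 5 libraries, with a limma adjusted p of up to 0.194 without lincomycin replicate 1.

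Between the genotypes few members differed, and those called by the main limma fit were lower in irx3-2. On lincomycin 6 members were called lower in irx3-2 (5.61%) and none higher by limma. Of all loci 2.33% were called lower and 3.35% higher. In either direction it was 5.68% of all loci, near the 5.61% of the members. At an unadjusted p under 0.05, 10 members were lower and 6 higher on lincomycin. On MS 2 members were called lower in irx3-2 (1.87%) and none higher, where 0.0593% and 0.158% of all loci were called (0.217% in either direction); 16 members were lower and 7 higher at an unadjusted p under 0.05. On the recovered reads edgeR called 6 members lower and 2 higher on lincomycin and DESeq2 6 lower and 3 higher, and on MS each called 2 lower and 0 higher. The 2 called higher on lincomycin by both were the Copia-like AT2G06950 (edgeR 0.58, adjusted p of 0.0329) and the LINE AT4G09875 (edgeR 2.84, adjusted p of 0.0277), named after their values were seen. The main limma adjusted p of AT2G06950 was 0.05095, next to the threshold. With 5 added in place of 1 before the log, limma called both higher, at adjusted p-values of 0.0489 and 0.0241. DESeq2 alone also called AT4G28900 higher (adjusted p of 0.0464), where limma gave 0.457. The calls on lincomycin needed both libraries of each group there: there were 0 without WT replicate 1 or 3, 1 without irx3-2 replicate 2 and 2 without irx3-2 replicate 3. On MS the count was 0 without WT lincomycin replicate 1 or 3, 9 without irx3-2 MS replicate 1 and 1 without any other. The median log2 difference of the members was -0.04 on lincomycin and -0.01 on MS, beside 0.01 and -0.01 over all loci. All 4 irx3-2 libraries lay below all 4 WT libraries for 4 members (3.74%), where 1.86% of all loci did so, and above them for 2 (1.87%), where 2.38% did. The authors' deposited tables list 5 members lower in irx3-2 on lincomycin, with no adjusted p given for 39, and 2 lower on MS.

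AT5G35935, a Copia-like gene on the minus strand of chr5:14083388-14089891, was lower in irx3-2 on both media. It had 33.4 and 17.6 normalized counts in irx3-2 against 152 and 168 in WT on lincomycin, and 11.0 and 14.2 in irx3-2 against 126 and 97.5 in WT on MS. The genotypes did not overlap on either medium. The log2 difference was -2.67 ± 0.36 on lincomycin and -3.05 ± 0.36 on MS, with limma adjusted p-values of 0.00267 and 0.00938. They were 0.0524 and 0.0537 without WT lincomycin replicate 1, and 0.0712 and 0.0536 without WT lincomycin replicate 3. The neighbouring lectin gene AT5G35940, 683 bases away on the opposite strand, had 424 and 369 in irx3-2 against 91.8 and 99.0 in WT on lincomycin and was called higher there (2.04, adjusted p of 0.0108).

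SADHU3-2 (AT3G42658) at chr3:14749400-14750294 was the other member called lower in irx3-2 on both media. It had 6.39 and 11.8 normalized counts in irx3-2 against 62.4 and 81.1 in WT on lincomycin, and 5.51 and 3.54 in irx3-2 against 46.0 and 53.8 in WT on MS. All WT libraries were above all irx3-2 libraries, with log2 differences of -2.89 ± 0.48 on lincomycin and -3.22 ± 0.48 on MS (limma adjusted p of 0.00701 and 0.0268). The call on lincomycin was lost without WT lincomycin replicate 1 (0.0839) or 3 (0.145) or irx3-2 lincomycin replicate 2 (0.0936). The call on MS was lost without any of 7 libraries, with adjusted p-values of 0.0537 to 0.142, and kept without irx3-2 MS replicate 1. All 50-base words of this locus are unique. The other 4 Sadhu members showed no such step: SADHU1-2 had 162 and 159 in irx3-2 against 193 and 223 in WT on lincomycin and 157 and 135 against 158 and 166 on MS, and SADHU4-1 had 43.3 and 51.6 in irx3-2 against 37.1 and 51.0 in WT on lincomycin. The gene beside SADHU3-2, AT3G42660 of the WD-40 repeat family, had 474 and 439 in irx3-2 against 388 and 413 in WT on lincomycin and was not called.

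AT5G33395, a CACTA-like gene at chr5:12664506-12666192, was lower in irx3-2 on lincomycin, with 6.39 and 13.1 in irx3-2 against 65.3 and 70.7 in WT (-2.76 ± 0.64, limma adjusted p of 0.0321). On MS it had no read in irx3-2 and 9.19 and 10.2 in WT. It was higher on lincomycin than on MS in both genotypes, at least 4.12-fold in irx3-2 and by 2.69 ± 0.64 on the log2 scale in WT. The glycine-rich protein gene AT5G33390, 1010 bases away on the same strand, had 11.4 and 3.92 in irx3-2 against 44.1 and 70.7 in WT on lincomycin, the same order without a call. The genotype call of AT5G33395 was lost without WT lincomycin replicate 1 (0.239) or 3 (0.306) and without irx3-2 lincomycin replicate 2 (0.266) or 3 (0.105), and its call between the media in WT without lincomycin replicate 1 (0.0876) or 3 (0.0987).

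The other members lower in irx3-2 on lincomycin differed less. AT1G35612, of no named class, had 78.8 and 84.9 in irx3-2 against 181 and 172 in WT on lincomycin (-1.10 ± 0.26, limma adjusted p of 0.0347), and on MS the genotypes overlapped, with 147 and 115 in irx3-2 and 195 and 113 in WT. AT1G35115, Copia-like, had 203 and 190.1 in irx3-2 against 313 and 300 in WT on lincomycin (-0.64 ± 0.15, adjusted p of 0.0353 by limma), and 231 and 189 in irx3-2 against 329 and 339 in WT on MS. AT2G11240 differed by -0.42 ± 0.09 on lincomycin with an adjusted p of 0.023 by limma. All 3 calls needed every one of the 4 lincomycin libraries, and leaving out any of them gave adjusted p-values of 0.133 to 0.245. Leaving out irx3-2 lincomycin replicate 3 and irx3-2 MS replicate 2 together leaves 1 library in each irx3-2 group, so only differences are given for that fit. On lincomycin they were -2.23 for AT5G35935 and -3.29 for SADHU3-2 on the log2 scale. On MS they were -3.22 and -2.96.

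**Figure D5:**
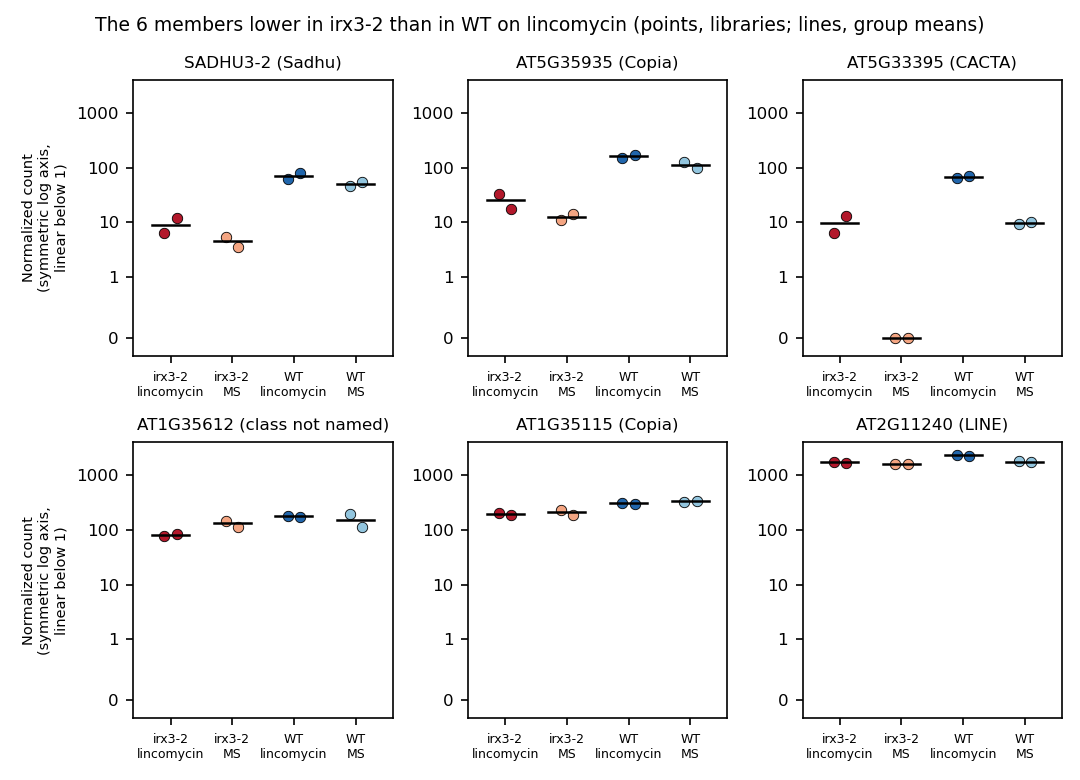
Normalized counts of the 6 members called lower in irx3-2 than in WT on lincomycin, on a symmetric log axis that is linear below 1, with 1 point per library and a line at each group mean. SADHU3-2 and AT5G35935 were called lower in irx3-2 on both media and the other 4 on lincomycin alone, and AT5G33395 is at 0 in both irx3-2 libraries on MS.

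Genes that silence transposable elements, and a few that act against silencing, were set beside the members, from a list of 50 in 4 groups. On lincomycin 12 were higher and 2 lower in irx3-2, with a median log2 difference of 0.34, and 7 were higher and 4 lower in WT, with a median of 0.19, beside 0.04 and 0.02 over all loci. Of all loci tested 15.8% were called higher and 18.0% lower in irx3-2, and 12.0% higher and 17.2% lower in WT, so that the 7 of 50 higher in WT were near the share of all loci. Among the 20 genes of RNA-directed DNA methylation 6 were higher in irx3-2 and 3 in WT, the second again near the 12.0% of all loci, and none was lower. CLSY3, a chromatin remodeller that brings RNA polymerase IV to a subset of its loci, had 755 and 669 normalized counts on lincomycin and 8.26 and 30.1 on MS in irx3-2, and 696 and 646 on lincomycin and 16.9 and 2.91 on MS in WT. It was near the floor on MS and rose by 5.39 ± 0.65 and 6.33 ± 0.65 on the log2 scale (limma adjusted p of 9.76e-05 and 3.29e-05). RDR2, the RNA polymerase that makes the double strand for small RNAs, had 282 and 295 on lincomycin and 110.2 and 135 on MS in irx3-2, and 257 and 279.7 on lincomycin and 116 and 122 on MS in WT. AGO6, an Argonaute protein of the same pathway, was higher by 1.02 and 1.05 on the log2 scale.

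Among 20 genes of methylation maintenance and heterochromatin 5 were higher and 2 lower in irx3-2, and 4 were higher and 2 lower in WT, where 15.8% and 18.0% of all loci in irx3-2 and 12.0% and 17.2% in WT were called higher and lower. DDM1, a remodeller that gives methyltransferases access to heterochromatin, had 326 and 337 on lincomycin and 211 and 244 on MS in irx3-2, and 322 and 294 on lincomycin and 195 and 149.9 on MS in WT, and was called higher in both. CMT2, a methyltransferase of long elements in heterochromatin, had 283 and 274 on lincomycin and 436 and 416 on MS in irx3-2, and 268 and 333 on lincomycin and 441 and 451 on MS in WT, and was called lower in both. The linker histone gene H1.1 was lower by 0.34 in irx3-2 and by 0.47 in WT on the log2 scale. Of the 5 genes of demethylation and anti-silencing, 1 was higher and 0 lower in irx3-2, and 0 were higher and 2 lower in WT. The DNA demethylase gene DME was called higher in irx3-2 (0.59, limma adjusted p of 0.0478) and had a log2 difference of 0.48 in WT. ROS1 and DML3, also demethylase genes, were called lower in WT, with log2 differences of -0.70 and -1.27, and had -0.46 and -0.87 in irx3-2. DML2 and IBM1 were not called, with 0.40 and 0.50 in irx3-2 and 0.34 and 0.22 in WT. None of the 5 genes of post-transcriptional silencing was called on either genotype. Between the genotypes limma called 1 of the 50 on lincomycin, where 5.68% of all loci were called (3.35% higher). It was CMT3, which was higher in irx3-2 with 475 and 452 against 340.1 and 296 in WT. On MS limma called 0 of the 50, where 0.217% of all loci were called, and 9 had an unadjusted p under 0.05. There edgeR and DESeq2 also called 0. Whether the levels of these genes bear on the members was not tested.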

How the data were processed

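Total RNA was sequenced in 8 libraries of 4 groups of 2. The deposited values are normalized counts (a signal) per locus, made by the authors with Trimmomatic, TopHat2 2.1.1, featureCounts and DESeq2 on build TAIR10, per the submitters' processing notes. The 4 deposited tables also hold the authors' log2 fold changes, p-values and Wald scores per comparison, of which the adjusted p-values were used, and the same normalized counts in each. The strand setting, the handling of multiply mapped reads and the annotation version are not given in the sources used here. Every value was a whole multiple of the smallest value in its library (100% within 0.01), so whole reads were recovered; edgeR called 38 members on lincomycin against MS in WT on them, where limma called 36. Depth was 15032240 to 19488440 reads.

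Loci at or above 10 normalized counts in at least 2 libraries (20251) were tested with limma 3.58.1 (R 4.3.3) on log2(normalized count + 1), with 4 group means, 4 residual degrees of freedom and Benjamini-Hochberg adjustment over all loci; a fold change on this scale understates changes of low loci. Alternatives were edgeR 4.0.16, DESeq2 1.42.0, pseudocounts of 0.5 and 5, other filters, scalings, sample sets and member criteria, and leaving out each library. Subtracting the low-level reads and leaving out both libraries that stood apart were chosen after seeing the data. The members and gene lists were chosen with earlier results of these data known. Members are named where they are in the 10 with the highest mean, in the 10 with the largest called difference per comparison and direction, at 0 in a group and called, or next to the threshold. A few other members are named outside this rule, such as the neighbours of AT3G21040. Positions, neighbours and sequences are from RefSeq TAIR10.1, matched by locus name (107 of 107 members), and repeats were found with blastn 2.17.0. The limma test was checked on simulated data.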

Additional observations from a re-analysis of the deposited data

How the results depend on the processing

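All numbers here are members called by limma unless a tool is named. Without a single library the count on lincomycin against MS ranged from 17 to 43 in irx3-2 (main 37) and from 14 to 46 in WT (main 36). With a member criterion of 50 it was 22 in each genotype. For irx3-2 against WT on lincomycin (main 6) it was 3 with no filter on low values, 13 with only the 2 groups compared, 0 to 8 without a single library and 2 without both libraries that stood apart. For irx3-2 against WT on MS (main 2) it was 0 with no filter, 0 with only the 2 groups compared, 0 to 9 without a single library and 0 without both libraries that stood apart. For the difference of the lincomycin effects (main 0) it was 0 to 1 without a single library. With the replicate number as a block the counts were 31 and 27 on lincomycin against MS in irx3-2 and WT, 1 for irx3-2 against WT on lincomycin, 1 on MS and 0 for the difference of effects; the numbers share no stated culture or day, and same-numbered libraries correlated by -0.137 to 0.126. The cause of these shifts was not tested, and without both libraries that stood apart each irx3-2 group holds 1 library. The other alternatives stayed within 1.5 times the main count, and subtracting the low-level reads gave 39, 37, 6 and 2. The 53 calls of named members had 1007 alternative values, of which 854 kept the call, 153 lost it and 0 changed direction. On MS fewer nuclear reads limit what can be detected.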
